A study of Homo sapiens with 12 samples.

Results

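The sites described here are the N6-methyladenosine (m6A) positions listed under replicate 1 in HEK293E cells given insulin, or insulin and Torin1, counted in protein-coding genes and grouped by what those genes do. Replicate 1 carried 50656 sites in the insulin group and 56298 in the Torin1 group, of 160249 sites listed over both conditions and all replicates. Each site was given to the protein-coding gene whose body held it on its own strand. That placed 43425 insulin sites (85.7%) and 48493 Torin1 sites (86.1%) in exactly 1 gene, and 42653 and 47540 of them lay in the 13564 protein-coding genes that had a genomic position and passed the filter on mRNA level. Of these genes, 3799 fell into 54 functional classes defined by gene symbol, and 38 genes belonged to more than 1 class. Both groups were HEK293E, 1 established line derived from human embryonic kidney, starved of serum overnight and then exposed to 200 nM insulin for 30 h. The Torin1 group was first given 250 nM Torin1, a catalytic inhibitor of the kinase mTOR, and the insulin group was not. All cells therefore carried the starvation and the insulin, and a group without insulin was not analysed here.

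m6A is the most abundant internal modification of mRNA. It is deposited as the transcript is made by a complex around METTL3 and METTL14 with WTAP, VIRMA, ZC3H13 and RBM15, can be removed by ALKBH5 and FTO, and is bound by YTH-domain proteins that act on decay, splicing and translation. Methylated adenosines are followed by a cytosine in a short preferred context, and are known to gather in long internal exons and around stop codons. Short housekeeping transcripts are known to carry little of it, while mRNAs of transcription factors and developmental regulators carry much. mTOR, the target of Torin1, couples insulin and amino acids to protein synthesis. In miCLIP, RNA is crosslinked to an antibody against m6A, and the substitutions this leaves in the sequenced copies mark single methylated positions.

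The base-level context of the sites can be read in 29-base windows around 11 positions that both replicate 1 lists hold. Each window is given in the RNA's direction, taken from the RefSeq promoter table on hg38, and its capitals mark the 5-mer with the listed adenosine at its centre. Sequence was at hand only from 250 bases before to 50 bases after a gene's start, where 33 shared positions had a window, and the 11 are all those in genes of the 54 classes. They therefore show the context of single sites near gene starts, not the typical place of a site. Of 1241 replicate 1 sites that fell in such promoter windows, 1241 had the reference 5-mer that the lists give.
SRSF6, chr20:43457895-43457923, plus strand: cattgtgtggctGGACTcggccgcccctg
WNT5A, chr3:55487291-55487319, minus strand: cgcctctccgtgGAACAgttgcctgcgcg
ZNF276, chr16:89721302-89721330, plus strand: cctctccctggaGGACTcgtcgtgaggtg
SMC4, chr3:160399664-160399692, plus strand: gacccggagccgAAACAccggtaggagcg
CDK13, chr7:39950314-39950342, plus strand: ggggcacttggaGGACTcgggactccccc
RNF208, chr9:137222412-137222440, minus strand: tcagcctggagaGAACTgggggcgacgcg
HNRNPDL, chr4:82430397-82430425, minus strand: cgcgccctccgcAGACAggttgagcgagc
POLR1B, chr2:112542429-112542457, plus strand: gcgtgtaccgagAGACTggcgtccggcgt
USP1, chr1:62437029-62437057, plus strand: acgggggtcctgAGACTgaggaaaacgcg
EEF1B2, chr2:206159733-206159761, plus strand: cgaaaggtccatGGACAatttgtgggcca
DDX56, chr7:44573874-44573902, minus strand: cagcgccatggaGGACTctgaagcactgg
SRSF6 encodes a splicing factor of the SR family, and its position had 4 substituted of 423 reads with insulin and 5 of 843 with Torin1. In WNT5A, which encodes a secreted WNT ligand, 3 of 11 and 5 of 46 reads were substituted. ZNF276, a C2H2 zinc finger gene, had 1 of 16 and 5 of 26. A site in these lists can thus be a deep position with few substituted reads or a thinly covered one with several.

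Across the replicate 1 sites in expressed genes, 18 different 5-mers occurred, all with an adenosine followed by a cytosine at the centre. The most frequent was ggAca, at 14.3% of sites with insulin and 14% with Torin1, followed by ggAct at 11.7% and 12.3%. The 5-mer gaAct came next at 9.33% and 9.23%, and taAcc was at 0.436% and 0.549%. The share of sites with GGAC at their first 4 bases was 33.1% in both conditions, so the base composition of the lists was alike.

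Depth and list structure bear on every count that follows. The median replicate 1 site was covered by 9 reads with insulin and 15 with Torin1, and a single substituted read supported 58.5% and 58.1% of sites. Replicates 2 and 3 carried 39670 and 6345 sites with insulin and 1552 and 5728 with Torin1, and each position stood once in a list, under 1 replicate. The replicate 3 counts given below are therefore positions not already listed under another replicate of that condition. They come from other libraries, but they are few and are no independent repeat of the same positions. With 1 library per condition, site counts have no replicate error and no test. The intervals on them (exact Poisson for ratios, Wilson for shares, both 95%) cover counting error only. Input mRNA was measured in 3 libraries per condition, with totals of 11418114 to 12528454 normalized units. Of the markers of embryonic kidney and progenitor cells 10 of 13 passed the filter, as did 13842 of all 17520 genes. That marker share is near the share of all genes and does not by itself identify the cells. Differentiated kidney had 2 of 10 and blood 3 of 10. Fibroblast and endothelium had 2 of 9, and hepatocyte and keratinocyte 1 of 6.

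Some stretches of the genome held no listed position of any replicate, condition or strand over 6 or more consecutive expressed genes. There were 18 such stretches with 241 genes on 12 chromosomes, and 101 of the genes lay on chromosome 6. Between bases 30060062 and 33580276 of chromosome 6, 103 of 109 expressed genes had none. The 109 genes held 4 replicate 1 sites with insulin and 13 with Torin1, where 374 and 359 were expected from their mRNA levels. Another 116 positions sat on 49 contigs other than the primary chromosomes. In all, 1561 expressed genes, inside or outside the stretches, had no listed position of any replicate, condition or strand. Whether read placement left the stretches or these genes empty was not tested. Genes inside the stretches are counted in the classes but are not described as poor in m6A.

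Site number followed mRNA abundance in both conditions. Sorted into 20 bins of equal size by input level, genes of the lowest bin had a mean of 0.116 sites with insulin, and 90.6% of them had none. Genes of the highest bin had a mean of 11 sites, and 5.30% had none. With Torin1 the means ran from 0.242 to 9.40. In all, 4787 expressed genes (35.3%) had no replicate 1 site with insulin and 3751 (27.7%) had none with Torin1, while 1085 (8.0%) and 1198 (8.83%) had 10 or more. The 67 genes with 30 or more sites with insulin, 0.494% of the genes, held 6.27% of the sites. With Torin1 the 46 such genes, 0.339%, held 3.66%. Genes with 3 to 9 sites held the largest share, 45.3% in 3849 genes with insulin and 50.7% in 4783 with Torin1. Across the 13564 genes the rank correlation of site number with input level was 0.62 with insulin and 0.55 with Torin1, a description over genes of 1 library. Every class below was for this reason set against the mean number of sites of all expressed genes in the same mRNA bin and condition. A class was called rich at an observed-to-expected ratio of 1.5 or more and poor at its inverse or less. Input values are not divided by transcript length, so a longer mRNA has more room for sites at the same input value. The highest bin spanned 3397 to 66038 units with insulin and 2734 to 93197 with Torin1. Differences in level within a bin are not adjusted for.

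**Figure D1:**
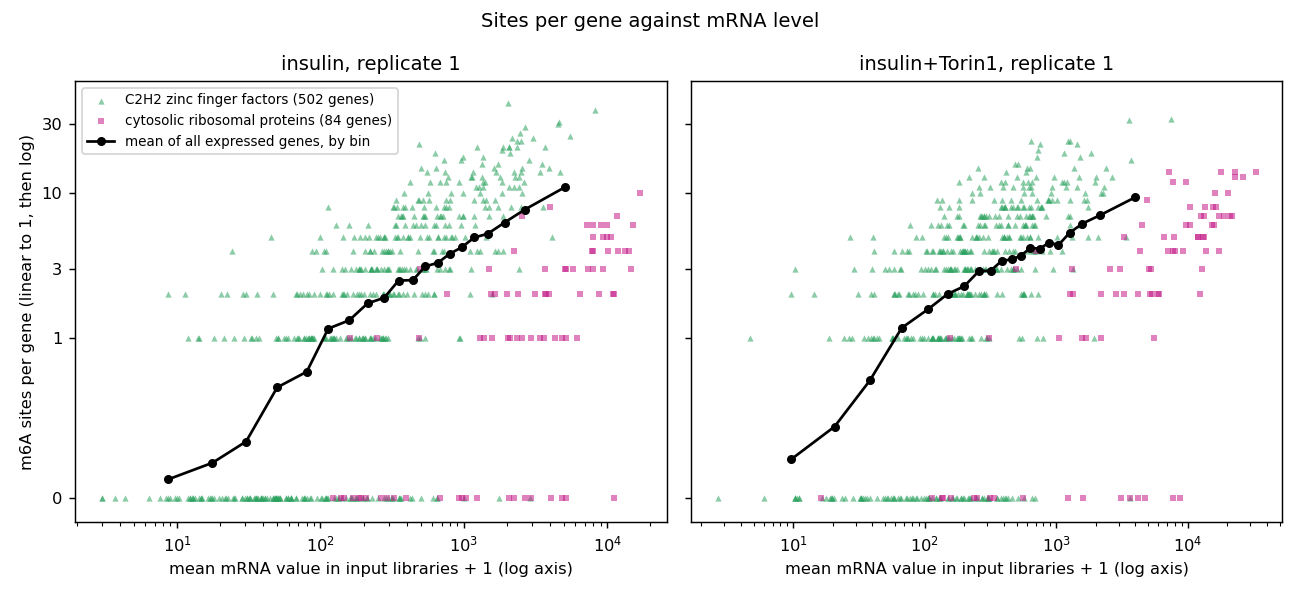
Mean replicate 1 sites per gene (vertical axis) against the mRNA level of 20 equal bins of expressed protein-coding genes (horizontal axis, log scale, normalized units), for insulin and insulin+Torin1. The means climb from 0.116 to 11 sites with insulin and from 0.242 to 9.40 with Torin1.

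With insulin 8 classes were rich and 14 were poor, and with Torin1 9 were rich and 9 were poor. The rich classes were genes of transcription control, chromatin marking, m6A itself and cell-surface guidance and adhesion. With insulin the poor classes were the machinery of protein synthesis, oxidative phosphorylation, the proteasome and lysosome, splicing cores, nucleotide synthesis and clustered histones. Chaperones, glycolysis with the pentose phosphate pathway and mitochondrially encoded mRNAs were also poor. Translation factors, ribosome biogenesis, mitochondrial ribosomal proteins, glycolysis and mitochondrially encoded mRNAs were not poor with Torin1. The class ratios in the 2 conditions had a Pearson correlation of 0.94 over 54 classes, which share members and bins. In the fewer sites listed under replicate 3, 2 of the 8 rich and 9 of the 14 poor insulin classes kept their call, and with Torin1 7 of 9 rich and 7 of 9 poor classes did. Of the rich insulin classes these were the cadherins, at 2.13, and the MAX network, while C2H2 zinc finger genes stood at 1.45 and histone lysine methylases and demethylases at 1.49. Just outside the insulin threshold lay signalling by Notch, WNT, Hedgehog, Hippo and TGF-beta at 1.47 and acetyltransferases, deacetylases and co-regulators at 1.45. Just inside lay ephrins, semaphorins and plexins at 1.74 and ribosome biogenesis at 0.634.

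**Figure D2:**
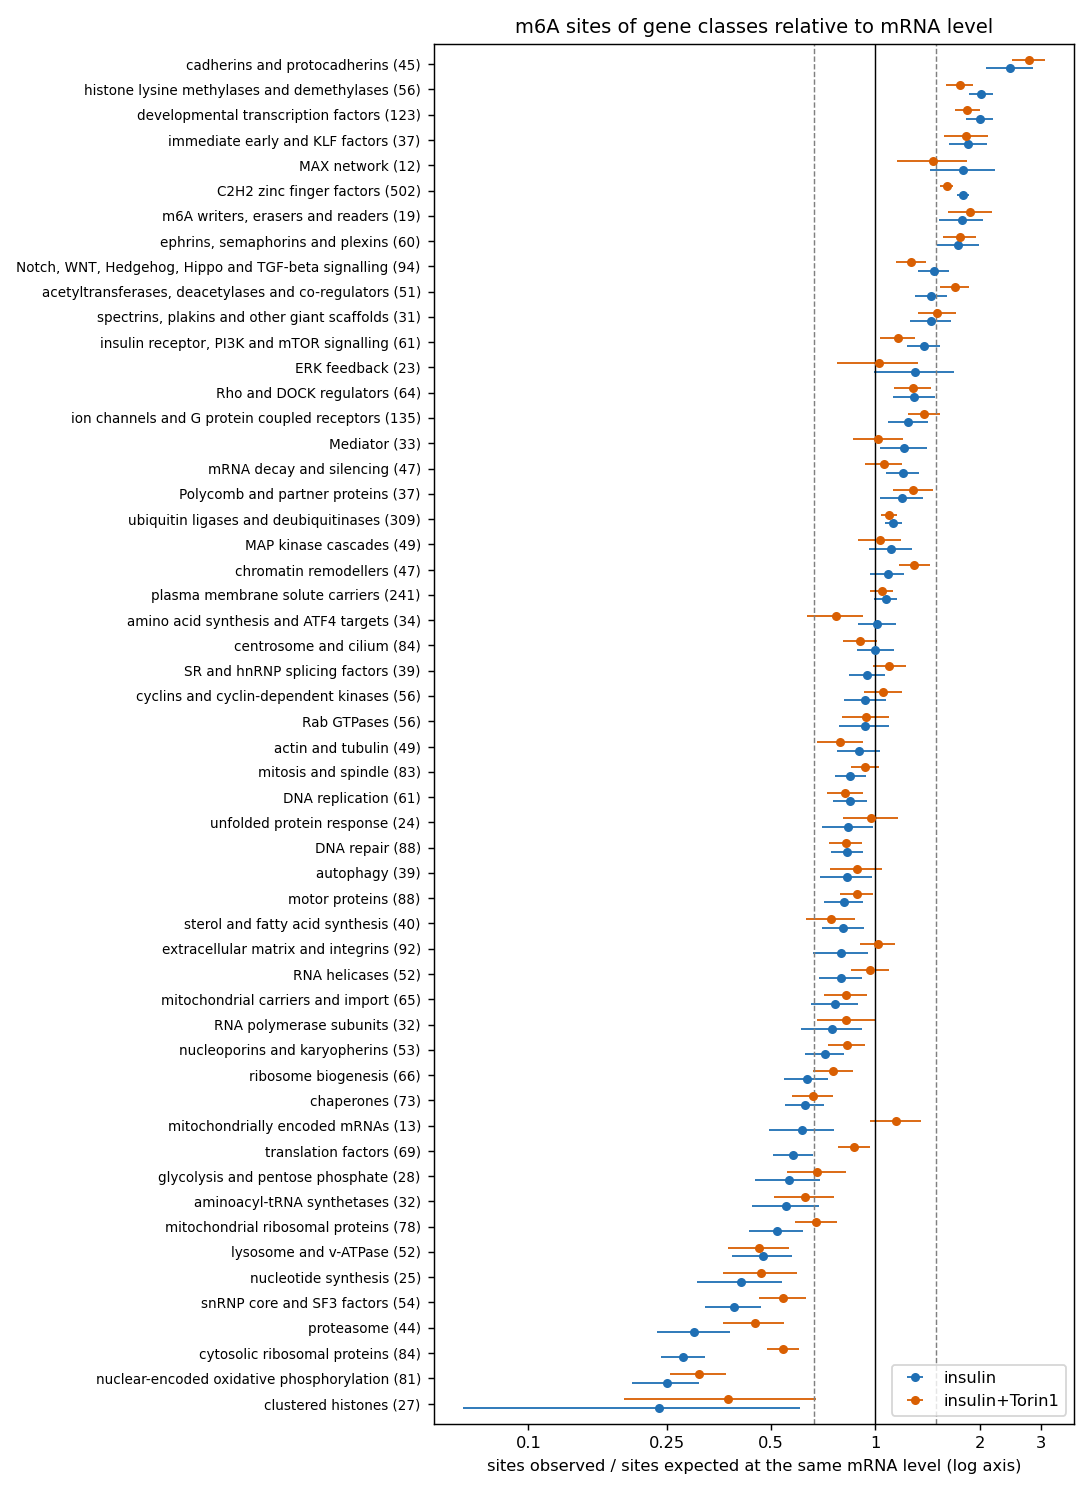
Observed-to-expected replicate 1 sites of 54 gene classes (horizontal axis, log scale) with insulin and insulin+Torin1; bars are 95% Poisson intervals, covering counting error only, and dashed grey lines mark 1.5 and its inverse. Cadherins lie at 2.44 and 2.77, and nuclear-encoded oxidative phosphorylation at 0.25 and 0.31.

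C2H2 zinc finger genes, the largest family of DNA-binding transcription factors, were the largest rich class. The 502 expressed members held 2233 sites with insulin and 2212 with Torin1. Their ratio was 1.79 (1.71 to 1.86) with insulin and 1.61 (1.54 to 1.67) with Torin1. More sites than the mean of their bin were found in 291 members with insulin and 294 with Torin1, which is 58.0% and 58.6% beside 33.8% and 35.3% of all expressed genes. No single gene carried the class, since its ratio was 1.76 and 1.59 without the member with the most sites. No site was found in 135 members (26.9%) with insulin and 95 (18.9%) with Torin1, beside 35.3% and 27.7% of all expressed genes.

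ZNF646 had the most sites of the class, 42 with insulin and 23 with Torin1, which is 6.69 and 5.51 times the expected number. Its input values were 2008, 2097 and 2014 with insulin and 645, 670 and 598 with Torin1, a log2 difference of -1.68 ± 0.05 (SE; limma adjusted p = 1.67e-19). Both sites and mRNA were lower with Torin1. ZNF503, a zinc finger co-repressor of development, moved the other way. Its input values were 2519, 2262 and 2281 with insulin and 3514, 3536 and 3613 with Torin1 (log2 difference 0.60), and its sites numbered 23 and 32. Of these positions, 22 were in both lists, so nearly all insulin positions of ZNF503 were listed again with Torin1. In ZNF646 the lists shared 10 positions.

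Developmental transcription factors (HOX, SOX, FOX, homeobox and related families, which set body pattern and cell fate) held 502 sites with insulin and 585 with Torin1 in 123 members. The ratios were 2.00 (1.83 to 2.18) and 1.84 (1.69 to 2.00). HOXD11 is a posterior HOX gene of limb and kidney patterning. Its input values of 492, 404 and 450 with insulin and 432, 445 and 450 with Torin1 overlapped and did not pass the test (log2 difference -0.02 ± 0.07, limma adjusted p = 0.834). It carried 29 and 26 sites, 11.6 and 7.47 times the expected number, and 21 positions were shared. SOX4, a factor of progenitor cells, had 35 and 31 sites while its mRNA fell from 4828, 4541 and 4594 to 2404, 2476 and 2329. FOXC1, a forkhead factor of mesenchyme and kidney development, had 25 and 23 sites, and its mRNA rose by 1.14 on the log2 scale. Site numbers of these 2 genes stayed near each other across conditions while their mRNA went opposite ways.

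Histone lysine methylases and demethylases, the enzymes that write and erase methyl marks on chromatin, held 630 sites with insulin and 492 with Torin1 in 56 members. Their ratios were 2.02 (1.87 to 2.19) and 1.75 (1.60 to 1.91). Of the members, 24 (42.9%) had 10 or more sites with insulin and 19 (33.9%) with Torin1, beside 8.0% and 8.83% of all expressed genes. Their median input levels were also higher, at 1249 and 923.5 beside 394 and 424 over all expressed genes. KMT2D, which methylates H3K4 at enhancers, had 55 and 32 sites. Input values of KMT2D were 5707, 5620 and 5315 with insulin and 3162, 3394 and 3398 with Torin1 (log2 difference -0.74 ± 0.04, limma adjusted p = 4.93e-15). NSD1, an H3K36 methylase, had 41 sites in each condition, of which 20 were shared, while its mRNA fell by 0.75 on the log2 scale. ASH1L, also an H3K36 methylase, had 35 and 28. Without KMT2D the class ratio was 1.91 with insulin and 1.69 with Torin1.

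Acetyltransferases, deacetylases and their co-regulators lay just under the threshold with insulin (1.45) and above it with Torin1 (1.69, 1.54 to 1.86). SPEN, a co-repressor that recruits deacetylases, led this class and all genes in both conditions with 74 and 88 sites, and the lists shared 49 of its positions. SPEN mRNA stood at 7895, 7759 and 7376 with insulin and 9731, 10102 and 9803 with Torin1 (log2 difference 0.36). Without SPEN the class ratios were 1.20 and 1.41, so the Torin1 call rested on this gene. EP300, a histone acetyltransferase, had 31 and 29 sites with 21 shared.

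Immediate early and KLF factors, which respond to growth signals within minutes and carry short-lived mRNAs, had 245 sites with insulin and 182 with Torin1 in 37 members. The ratios were 1.85 (1.63 to 2.10) and 1.83 (1.57 to 2.11). The insulin call of immediate early and KLF factors was lost with sites of any replicate (1.49) and under replicate 3 (1.08). Of the members, 30 were lower in mRNA with Torin1, 3 were higher and 4 did not pass, beside 42.5% lower and 43.4% higher among all 13842 genes tested. JUN, a subunit of the AP-1 transcription factor, had 42 and 32 sites, of which 25 were shared. In the input JUN was at 5007, 4780 and 4695 with insulin and 2564, 2601 and 2543 with Torin1, well apart. Relative to the sites expected at each level, JUN stood at 3.82 with insulin and 4.52 with Torin1. IER2, an early response gene, had 16 and 12 sites and an mRNA difference of -1.19 on the log2 scale.

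The m6A machinery itself was rich. Its 19 members held 187 sites with insulin and 189 with Torin1, for ratios of 1.78 (1.53 to 2.05) and 1.87 (1.62 to 2.16), while 14 members were lower in mRNA with Torin1, 4 were higher and 1 did not pass (all genes tested: 42.5% lower and 43.4% higher). RBM15, which brings the writer complex to its targets, had 30 and 24 sites. RBM15 mRNA was at 1706, 1597 and 1551 with insulin and 534, 510 and 565 with Torin1 (log2 difference -1.59 ± 0.05, limma adjusted p = 1.85e-18). Relative to expectation it went from 5.72 to 6.47. Its paralog RBM15B had 23 and 21 sites, and YTHDF2, a reader that brings methylated mRNA to decay, had 19 and 20. YTHDC1, the nuclear reader, had no listed position of any kind in its body at input values of 2059, 2006 and 2050 with insulin and 1900, 1934 and 1769 with Torin1. In the sites listed under replicate 3 the class ratio was 1.08 with insulin and 1.18 with Torin1, below the threshold.

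The MAX network, the dimerisation partners and competitors of MYC, had 87 sites with insulin (ratio 1.79) and 74 with Torin1 (1.47) in 12 members. MGA, a large MAX partner that represses MYC targets, had 24 sites with insulin and 13 with Torin1, and its mRNA fell by 0.94 on the log2 scale.

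At the cell surface, cadherins and protocadherins, the calcium-dependent adhesion molecules, had the highest ratio in both conditions. The 45 members held 161 sites with insulin and 321 with Torin1, 2.44 (2.08 to 2.85) and 2.77 (2.47 to 3.09) times the expected number. No site was found in 26 members (57.8%) with insulin and 18 (40%) with Torin1, beside 35.3% and 27.7% of all expressed genes. Median input levels of the class were low, at 62 and 74 beside 394 and 424 over all expressed genes. In the mRNA bins that hold these medians, 64.3% and 46.8% of genes had no site. FAT1, a giant protocadherin, had 19 and 45 sites, and its input values were 1350, 1311 and 1304 with insulin and 3424, 3436 and 3493 with Torin1. FAT4, its relative in planar polarity, had 33 and 36 sites although its mRNA fell from 2154, 2149 and 2260 to 1383, 1383 and 1428. PCDH7 had 16 and 35 sites, with mRNA higher by 1.24 on the log2 scale. CDH1, which encodes E-cadherin of epithelia, had none at values of 94, 110 and 86 with insulin and 155, 156 and 149 with Torin1.

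Ephrins, semaphorins and plexins, the ligands and receptors of axon and vessel guidance, had 203 sites with insulin and 333 with Torin1 in 60 members. The ratios were 1.74 (1.51 to 1.99) and 1.75 (1.57 to 1.95). SLIT2, a secreted guidance ligand, had 31 sites in both lists, 19 of them shared, while its mRNA rose from 5811, 5242 and 5490 to 9525, 9482 and 9333. EFNB2, the membrane ligand ephrin-B2, had 25 and 30 sites while its mRNA fell from 4062, 4204 and 4265 to 2462, 2457 and 2463. The mRNA of these genes thus went in opposite directions, while limma called 43.4% of all genes tested higher and 42.5% lower. Spectrins, plakins and other giant scaffolds reached 1.44 with insulin and 1.51 with Torin1, and the insulin ratio was 1.13 without MAP1B. The Torin1 call of the scaffolds was lost under 6 of the 15 alternative settings.

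Protein synthesis lay at the other end. The 84 expressed cytosolic ribosomal protein genes held 183 sites with insulin and 356 with Torin1. That is 0.28 (0.24 to 0.32) and 0.54 (0.49 to 0.60) times the number expected from their mRNA bins. Expected sites were 655 with insulin and 656 with Torin1, although summed input was 1.69 times as high with Torin1. The move from 0.28 to 0.54 is therefore not adjusted for that rise in mRNA. No member exceeded its bin mean with insulin (0 of 84, beside 33.8% of all expressed genes) and 10 did with Torin1 (beside 35.3%). RPL3, a core protein of the large subunit, had 6 and 14 sites and shared all 6. RPL3 mRNA was at 7326, 6979 and 7385 with insulin and 23115, 22157 and 22911 with Torin1 (log2 difference 1.65 ± 0.03, limma adjusted p = 9.80e-23). RPS4X of the small subunit also had 6 and 14 sites, with values of 14869, 14778 and 15356 against 33442, 32281 and 32782. RPS13 had no listed position of any kind at 4670, 4837 and 4928 units with insulin and 7596, 7507 and 7979 with Torin1. RPS9 and RPL14 had none either. With Torin1 the class ratio was 0.34 in the sites listed under replicate 3 and 0.76, no longer poor, in sites with at least 3 substituted reads.

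Translation factors, which drive initiation and elongation, had 233 sites with insulin (ratio 0.58, 0.51 to 0.66) and 348 with Torin1 (0.87, 0.78 to 0.96) in 69 members. Here too expected sites barely differed, at 402 and 401, while summed input was 1.19 times as high with Torin1. EEF2, the factor that moves the ribosome along the mRNA, had the most sites of the class, 32 and 53, of which 30 were shared. Its input values were 69562, 64159 and 64393 with insulin and 92766, 92165 and 94659 with Torin1 (log2 difference 0.50). The EEF2 position with the most substituted reads lay at base 3976468 of chromosome 19, on the minus strand and 412 nt inside the gene's end. There 94 of 2048 reads (4.59%, 3.77% to 5.58%) were substituted with insulin and 292 of 8325 (3.51%, 3.13% to 3.92%) with Torin1. The number of reads differed more than the substituted share, whose intervals overlap. Without EEF2 the class stood at 0.51 and 0.75. More sites than the mean of their bin were found in 13 members (18.8%) with insulin and 18 (26.1%) with Torin1. Of all expressed genes 33.8% and 35.3% had more. EIF4G1, the scaffold of cap-dependent initiation, had 19 and 17 sites, and EIF3A, a subunit of initiation factor 3, had 12 and 14. Aminoacyl-tRNA synthetases were at 0.55 and 0.63, and ribosome biogenesis at 0.63 and 0.76.

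Mitochondrial classes differed among themselves. The 81 nuclear genes of oxidative phosphorylation held 80 sites with insulin and 119 with Torin1, 0.25 (0.20 to 0.31) and 0.31 (0.26 to 0.37) of the expected number. No member reached 10 sites in either condition, where 8.0% and 8.83% of all expressed genes did. In each condition 4 members exceeded their bin mean, beside 33.8% and 35.3% of all expressed genes. ATP5B, the catalytic beta subunit of ATP synthase, had the most, 7 and 8, at input values of 11083, 10408 and 10565 with insulin and 9454, 9452 and 9569 with Torin1. COX7C, a small subunit of cytochrome oxidase, had none at 1059, 1106 and 1155 with insulin and 2929, 2988 and 3032 with Torin1. Mitochondrial ribosomal proteins were at 0.52 with insulin and 0.68 with Torin1 in 78 members, poor with insulin only. Mitochondrial carriers and import factors were between the thresholds at 0.765 and 0.821 in 65 members. Among the ribosomal proteins MRPS25 had 3 and 15 sites and MRPS2 had 9 and 11, each with higher mRNA.

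The 13 mRNAs made inside the mitochondrion had 86 sites with insulin and 140 with Torin1, at ratios of 0.62 (0.49 to 0.76) and 1.15 (0.96 to 1.35). Expected sites were 140 and 122 although summed input was 1.41 times as high with Torin1. The change in ratio is therefore not adjusted for that rise. MT-ND5, a subunit of complex I, went from 6 to 23 sites. MT-ND5 stood in the input at 16442, 16160 and 17399 with insulin and 25420, 29010 and 24723 with Torin1. Their sites had a different sequence context, with GGAC at 5.81% (2.51% to 12.9%) and 5.0% of sites where all genes had 33.1%. All 13 were higher in mRNA with Torin1, as were 43.4% of all genes tested. The insulin call of this class was lost under 4 of the 15 alternative settings, 10 rather than 20 mRNA bins among them.

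Among genes of protein degradation, those of the proteasome and the lysosome were poor. Ubiquitin ligases and deubiquitinases, which choose the proteins to be degraded, were between the thresholds at 1.13 and 1.10 in 309 members, and autophagy genes at 0.827 and 0.882 in 39. The 44 proteasome genes had 70 sites with insulin and 98 with Torin1, at ratios of 0.30 (0.23 to 0.38) and 0.45 (0.36 to 0.55). PSMA3, a subunit of the core's outer ring, had no replicate 1 site in either condition. PSMB7, a catalytic core subunit, went from 2 to 11 sites while its mRNA fell from 1892, 1863 and 1826 to 1274, 1308 and 1227. Lysosome and v-ATPase genes were at 0.47 and 0.46 in 52 members. NPC1, the cholesterol exporter of the lysosome, departed from them with 19 sites with insulin and 4 with Torin1, as its mRNA fell by 2.37 on the log2 scale. Chaperones lay close to the threshold at 0.63 and 0.66, and the Torin1 call was lost under 8 of the 15 alternative settings.

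Other basic machinery followed. The snRNP core and SF3 factors, which form the splicing machine, had ratios of 0.39 and 0.54. The SR and hnRNP factors that steer splice site choice were at 0.95 and 1.10, and at 0.76 and 0.93 without SON. Under replicate 3 the snRNP core and SR classes were close with insulin, at 0.63 and 0.66. With Torin1 they were apart there, at 0.46 and 1.23. SON, a large SR-like protein of nuclear speckles, had 63 and 59 sites, of which 38 were shared. Nucleotide synthesis was at 0.41 and 0.47. Glycolysis and the pentose phosphate pathway were at 0.56 with insulin and, just over the threshold, at 0.68 with Torin1. GAPDH had 7 and 10 sites, and PKM, the last kinase of glycolysis, had 12 and 13. Clustered histones, whose mRNAs end in a stem-loop and mostly lack the poly(A) tail that the libraries were selected on, had 4 and 11 sites in 27 members.

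Abundant mRNAs with no site in either condition were rare. Among the 100 most abundant genes there were 2, both inside the site-free stretches, and among the 1000 most abundant there were 25, of which 15 lay in the stretches. PRPF8, the central protein of the spliceosome, was the most abundant outside them. In the input PRPF8 was at 6703, 6670 and 6451 with insulin and 8807, 8738 and 9021 with Torin1, and its body of 34239 nt held no position of any replicate or strand. INTS3, a subunit of the Integrator complex, likewise had none at 1781, 1813 and 1893 with insulin and 4393, 4425 and 4570 with Torin1. These genes outside the stretches, RPS9 and RPL14 included, were named after their values were seen. Whether read placement left any of them empty was not tested.

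Genes of the insulin receptor, PI3K and mTOR pathway, which the treatment acts on, held 336 sites with insulin and 296 with Torin1 in 61 members. The ratios were 1.38 (1.23 to 1.53) and 1.16 (1.03 to 1.30), between the thresholds. Of the members 24 were higher in mRNA with Torin1, 33 were lower and 4 did not pass, beside 43.4% higher and 42.5% lower among all genes tested. TSC1, which restrains mTOR complex 1, had 50 and 21 sites, and its input values were 14157, 14758 and 13970 with insulin and 1763, 1714 and 1747 with Torin1 (log2 difference -3.04 ± 0.03, limma adjusted p = 1.17e-26). IRS2, the adaptor of the insulin receptor, had 31 and 34 sites, 23 shared, with values of 3260, 3037 and 2856 against 5004, 5204 and 5117. IGF1R, the receptor of insulin-like growth factor, had 29 and 27.

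Where sites lay along the gene also differed between classes. Positions are given relative to the annotated end of the gene body, since the reference tables hold no exons or untranslated regions. Over all expressed genes 33.8% of insulin sites and 34.3% of Torin1 sites lay within 2000 nt of the end. In mitochondrial ribosomal protein genes the shares were 77.2% (69.1% to 83.8%) and 70.6% (64.0% to 76.5%), and in aminoacyl-tRNA synthetases 65.9% and 62.0%. In cadherins they were 13.7% (9.20% to 19.8%) and 9.35% (6.62% to 13%), and in histone lysine methylases and demethylases 18.4% (15.6% to 21.6%) and 18.9%. The m6A machinery had 19.3% and 14.3%, and C2H2 zinc finger genes 26.0% and 29.1%. Gene length differed too: the median gene body was 8642.5 nt in mitochondrial ribosomal proteins, 91925 nt in cadherins and 32170 nt over all genes. The order was not the same throughout, since the median was 35248 nt in aminoacyl-tRNA synthetases and 23151.5 nt in C2H2 zinc finger genes. The part of length in the shares was not tested. JUN had 25 of its 42 insulin sites within 2000 nt of the end. That distance takes in most of the 3257 nt JUN gene body, so the share does not show sites gathering at the end. NSD1 had none of 41 that near its end. Sequence context varied too. GGAC stood at 26.3% (24.5% to 28.2%) of insulin sites in C2H2 zinc finger genes and 18.6% (13.6% to 24.8%) in cytosolic ribosomal proteins. Over all expressed genes the share was 33.1%.

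**Figure D3:**
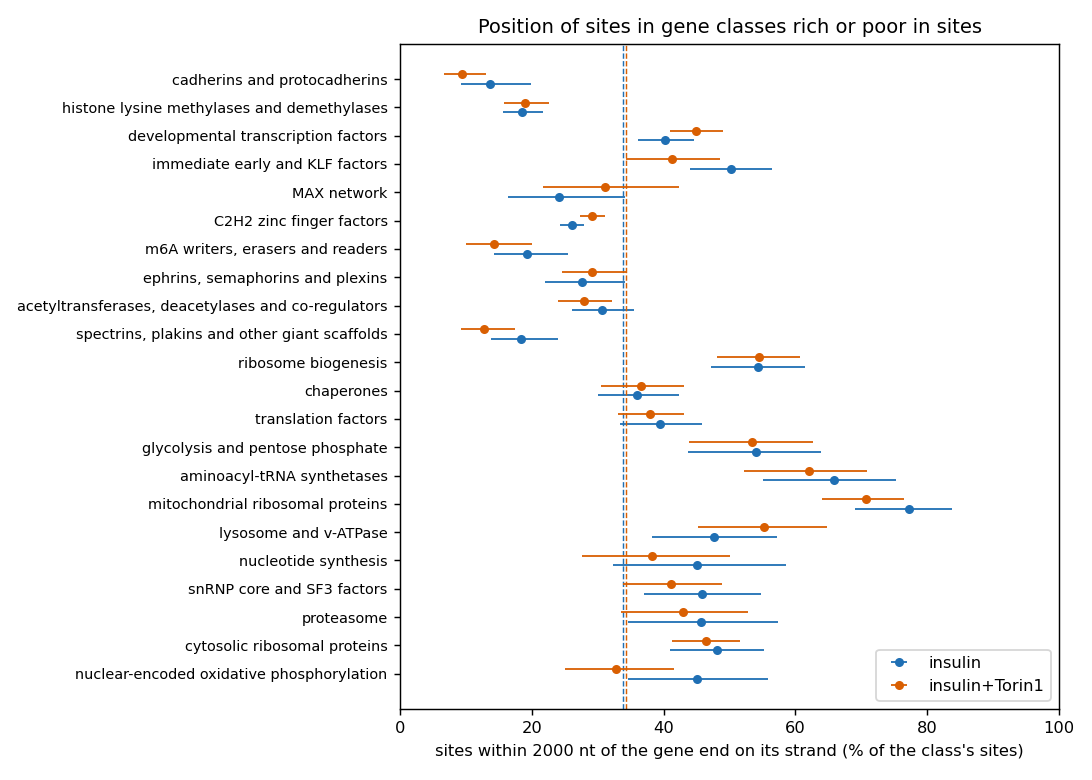
Percent of replicate 1 sites within 2000 nt of the annotated gene end (horizontal axis) by gene class, with insulin and insulin+Torin1; bars are 95% Wilson intervals and dashed lines are all expressed genes (33.8% and 34.3%). Mitochondrial ribosomal proteins lie at 77.2% and 70.6% and cadherins at 13.7% and 9.35%. Clustered histones and mitochondrially encoded mRNAs, with median gene bodies of 508 and 784 nt, are left out.

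Between conditions, replicate 1 listed 1.11 times as many sites in expressed genes with Torin1 as with insulin. Median reads per site differed too, at 9 and 15, and the part of depth in this ratio was not tested. Under replicate 3 the ratio was 0.928, so the overall direction was not the same in both. More sites with Torin1 were found in 42.5% of expressed genes and fewer in 26.6%. The 2 replicate 1 lists shared 16264 positions, 32.1% of those with insulin and 28.9% of those with Torin1. Class ratios are therefore best read beside the 1.11 of all genes and beside the mRNA of the class.

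The classes with the largest relative gain were extracellular matrix and integrins, cadherins, and cytosolic ribosomal proteins, apart from the 4 and 11 sites of clustered histones. Matrix and integrin genes, which build and bind the scaffold around cells, had 120 sites with insulin and 289 with Torin1, a ratio of 2.41, and the replicate 3 ratio was 1.85 from 20 and 37 sites. Of their 92 members 72 were higher in mRNA with Torin1, beside 43.4% of all genes tested, and the median log2 difference was 1.12, beside 0.02 over all expressed genes. Cadherins had a ratio of 1.99 (replicate 3, 1.37 from 19 and 26 sites) and a median mRNA difference of 1.32. Ribosomal proteins had a ratio of 1.95, with 54 members gaining sites, 5 losing and 25 equal. Over all expressed genes 42.5% gained and 26.6% lost sites. Median reads per site in ribosomal proteins were 65 with insulin and 217 with Torin1, beside 11 and 17 over all expressed genes. The part of depth in this class's gain was not tested. Of the 84, 73 were higher in mRNA, beside 43.4% of all genes tested, and their summed input was 1.69 times as high with Torin1. Under replicate 3 they had 19 and 20 sites, a ratio of 1.05.

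Amino acid synthesis and ATF4 target genes, which cells induce when amino acids or mTOR signalling call for them, had the lowest ratio. They had 251 sites with insulin and 119 with Torin1 in 34 members, a ratio of 0.47, and 30 members were lower in mRNA (median log2 difference -1.61), beside 42.5% of all genes tested. SLC7A1, a cationic amino acid transporter, had 30 and 18 sites with input values of 3878, 3596 and 3692 against 1582, 1740 and 1684. SLC1A5, the glutamine transporter, had 22 and 15 with 8128, 7871 and 7792 against 2513, 2529 and 2716. Both were at a similar multiple of the expected sites in each condition, 2.73 and 2.92 for SLC7A1 and 2.00 and 2.12 for SLC1A5. Under replicate 3 the class had 8 and 12 sites, the opposite direction. Immediate early and KLF factors had a ratio of 0.74, sterol and fatty acid synthesis 0.75 and histone lysine methylases and demethylases 0.78. Their replicate 3 ratios were 1.35, 1.08 and 1.06, from few sites.

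**Figure D4:**
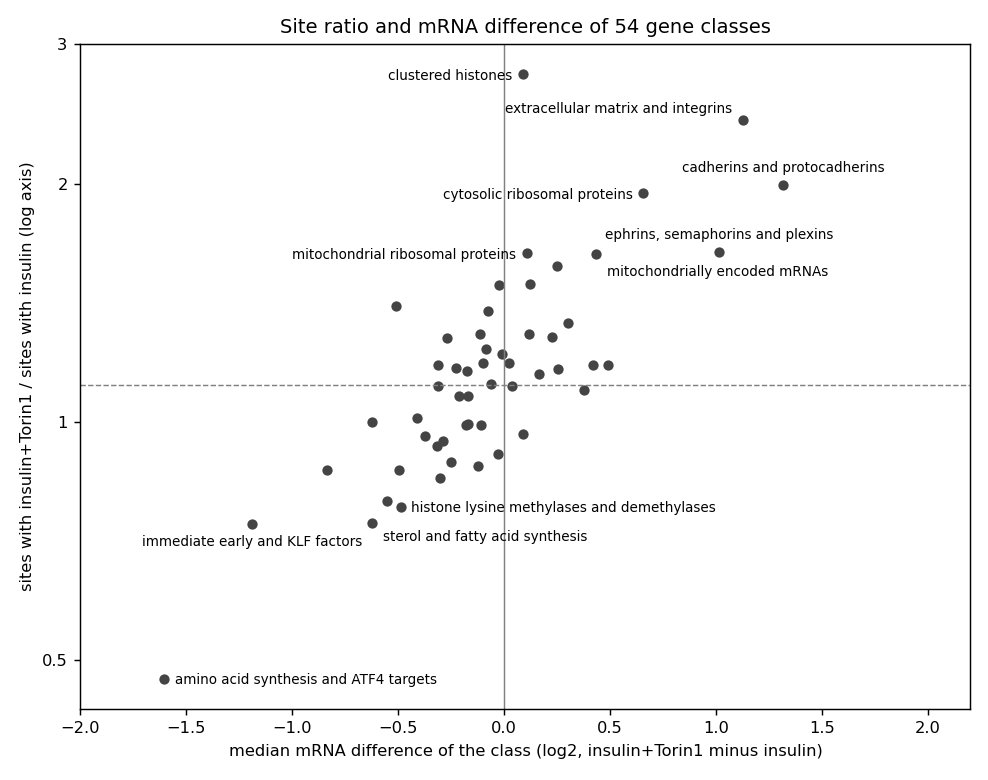
Ratio of replicate 1 sites with insulin+Torin1 to those with insulin (vertical axis, log scale) against the median log2 mRNA difference (horizontal axis) of 54 gene classes; the dashed line is all expressed genes at 1.11. Matrix genes and cadherins lie upper right at 2.41 and 1.99, amino acid genes lower left at 0.47.

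Site change tracked mRNA change at the level of classes and genes. Over the 54 classes the site ratio and the median mRNA difference had a Pearson correlation of 0.78 and a rank correlation of 0.72. Over the 3159 genes with 10 or more sites in the 2 lists together the coefficients were 0.73 and 0.71. These describe classes and genes of 1 library pair and carry no test. Grouped by mRNA difference, the 603 genes that were lower by more than 2 on the log2 scale had a site ratio of 0.342, and the 913 that were higher by 2 or more had 5.78. The sites listed under replicate 3 gave 0.455 (231 and 105 sites) and 2.40 (82 and 197 sites) for the same groups. The order of the 8 groups was thus the same in both sets of sites, with a narrower range under replicate 3.

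**Figure D5:**
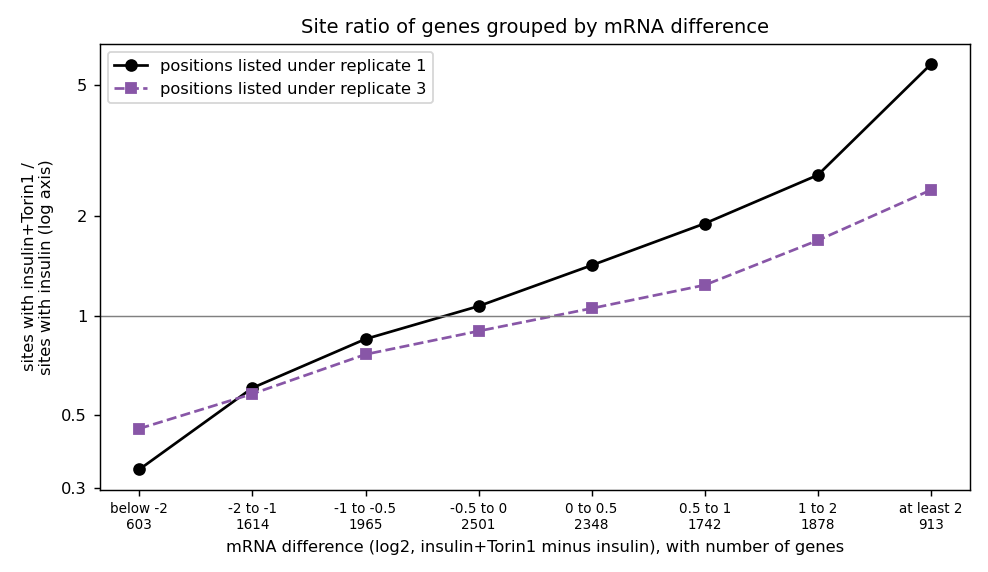
Ratio of sites with insulin+Torin1 to those with insulin (vertical axis, log scale) for expressed genes in 8 groups of log2 mRNA difference (horizontal axis, number of genes below each), for positions listed under replicate 1 and replicate 3. The replicate 1 ratio climbs from 0.342 to 5.78 and the replicate 3 ratio from 0.455 to 2.40.

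Single genes with the largest gains and losses showed the same. VCAN, a matrix proteoglycan, gained the most, from 1 to 36 sites. VCAN mRNA was at 177, 139 and 173 with insulin and 2761, 2741 and 2695 with Torin1 (log2 difference 4.07 ± 0.07, limma adjusted p = 3.58e-23), and under replicate 3 it had 0 and 5 sites. CELSR1, a cadherin of planar polarity, went from 2 to 24 sites with values of 145, 128 and 158 against 1222, 1221 and 1205. EMILIN3, a matrix glycoprotein, went from 4 to 25. MAP1B, a microtubule-associated protein of neurons, lost the most, from 60 to 10 sites. Its values were 6754, 6434 and 6874 with insulin and 1016, 1054 and 1008 with Torin1 (log2 difference -2.70 ± 0.04), and replicate 3 listed 7 and 1. PRR14L fell in mRNA by 3.24 on the log2 scale and had 59 and 10 sites. No mRNA values of these 5 genes overlapped between conditions. The share of all genes without such overlap is not given here. By the limma call, a different measure, 43.4% of all genes tested were higher and 42.5% lower.

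Some genes departed from this pattern. MACF1, a giant linker of actin and microtubules, had 22 and 42 sites at input values of 4828, 5177 and 4972 with insulin and 5239, 5324 and 5247 with Torin1, a log2 difference of 0.08. PFKP, a phosphofructokinase of glycolysis, had 7 and 17 sites at overlapping values of 1938, 1945 and 1992 against 2115, 1966 and 2073. SCD, which makes monounsaturated fatty acids, had 20 and 8 sites at overlapping values of 2723, 2660 and 2807 against 2919, 3076 and 2800. Under replicate 3 SCD had 1 and 5 sites, MACF1 2 and 3, and PFKP 0 and 2. With 1 library per condition, whether any of these differences in site number exceeds the spread between libraries cannot be told.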

How the data were processed

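HEK293E mRNA was poly(A)-selected and sequenced as input or after miCLIP, 3 biological replicates per group per the labels' protocols. The submitters' processing notes name hg38, BWA 0.7.1, STAR, DESeq2 1.22.2 and DESeq, with no step stated. The deposited expression values were normalized by the authors and rounded, and were used as a score, not as read counts, so the planned count test was not run. The authors deposited 1 site list per condition with, for each site, the count of reads, the count of substituted reads and their fraction.

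Table symbols were matched to RefSeq protein-coding genes (16765 of 17520, 1095 through an older symbol). Strand came from the RefSeq promoter table for 13489 genes and from the sites for 2181, a rule that gave the known strand in 93.2% of 10224 genes. Sites in more than 1 gene (1.68% and 1.82%) or in none (12.6% and 12.0%) were left out. Expected sites were the mean of the mRNA bin. mRNA was tested with limma 3.58.1 (R 4.3.3) on log2(value + 1) with a variance trend, for 13842 genes with at least 10 in at least 3 libraries, Benjamini-Hochberg over all of them, called at 0.05. Differences are on that scale, which understates low genes. The test was checked on simulated data. Replicate numbers did not pair the input libraries (correlations of deviations -0.023, 0.0097 and -0.004). Named genes were, per class, up to 3 with the most sites and 2 with the highest mRNA and no site, and overall the 10 with the most sites per condition, the 10 most abundant without sites, and the 8 largest gains and losses. The members, classes and rules were chosen with earlier results of these data known.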

Additional observations from a re-analysis of the deposited data

Results flagged for a closer look

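Long non-coding RNA genes, which enter none of the counts per gene or class, also held replicate 1 sites on their own strand: 1041 (16.3%) of the 6378 insulin sites and 1596 (23.5%) of the 6781 Torin1 sites outside protein-coding genes. Each of the following is listed because it is a signal in data that the comparisons did not use. SLC9A3-AS1 held 32 sites with insulin and 44 with Torin1. It neighbours SLC9A3, a sodium/proton exchanger gene with 25 and 29 sites at input values of 129, 116 and 139 with insulin and 166, 197 and 170 with Torin1. TTN-AS1 held 1 and 30 sites, while TTN itself, on the opposite strand, had none in either list. LINC00205 held 8 and 22, GATA2-AS1 14 in each condition, and FBXL19-AS1 12 and 14.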

How the results depend on the processing

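Site counts come from 1 library per condition and carry no test, so the settings could only move their values. The share of genes with no site, 35.3% with insulin and 27.7% with Torin1, became 23.4% and 25.4% with sites of any replicate, 73.5% and 74.6% under replicate 3, 73.4% and 67.3% with at least 3 substituted reads, and 63.4% and 47.3% with at least 10 reads. It was 34% and 26.2% with sites in several genes counted in each, 47% and 40.5% over all genes above 0, and 24% and 17.6% at a mean of at least 100. In 2 settings chosen after seeing the data it was 34.3% and 26.8% with the reference strand only and 34.1% and 26.3% without the site-free stretches. The Torin1 to insulin ratio of 1.11 was 0.669 with any replicate and 0.928 under replicate 3. The 8 rich insulin classes became 3 under replicate 3. For classes, replicate 3 turned the Torin1 to insulin ratio relative to all genes to 1.46 for immediate early and KLF factors and 1.62 for amino acid genes, and the Torin1 class ratio to 1.28 for clustered histones and 1.0019 for chaperones. With at least 3 substituted reads the relative ratio of clustered histones was 0.894 and the Torin1 class ratio of giant scaffolds 0.988. The cause of these moves was not tested. The other class values, 1617 within the spread and 210 moved, kept their direction. In the mRNA test, limma called 6010 genes higher and 5888 lower. With the replicate block it called 5983 and 5867, and leaving out 1 library gave 5759 to 5950 and 5700 to 5860. Scaled to equal totals it called 6681 and 5282, and the median difference of all genes moved from 0.02 to 0.14. Coding length as a further control was not run, and no exon positions were used here, so long transcripts cannot be told apart from densely marked ones.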

Other observations

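Outside the protein-coding genes described, the replicate 1 positions with the most substituted reads lay in a long non-coding RNA and in pseudogenes of ribosomal proteins. The GCC2-AS1 position at base 108533177 of chromosome 2 had 397 of 3907 reads substituted with insulin (10.2%) and 395 of 3139 with Torin1 (12.6%). In the pseudogene RPL8P4 157 of 157 and 414 of 418 reads were substituted, and in RPS19P1 97.6% and 95.4% were. These shares of nearly all reads are unlike the 4.59% and 3.51% at the leading EEF2 position. Whether reads placed on these pseudogenes came from their parent genes, and whether the positions are methylated, was not tested.

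CEP72, which encodes a centrosome protein, had 61 sites with insulin and 35 with Torin1, 12.3 and 10.1 times the number expected at its mRNA level. Its input values were 1247, 1347 and 1168 with insulin and 519, 465 and 503 with Torin1. It lies on chromosome 5 near SLC9A3, whose 25 and 29 sites were 21.6 and 12.8 times the expected number. Without CEP72 the centrosome and cilium class stood at 0.78 with insulin and 0.81 with Torin1, against 1.00 and 0.90 with it.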
